A study of Mus musculus with 6 samples.

Results

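The genes described here are 10 mouse genes of neutrophil granules, neutrophil chemotaxis and granulocyte growth: S100a8, S100a9, Lcn2, Retnlg, Cxcr2, Fpr1, Fpr2, Csf3r, Csf3 and Cd177. They were chosen by name, as the rows of the deposited table whose Ensembl identifier carries one of these symbols in GENCODE mouse release M21, which gave 10 of 20533 genes. The rule itself uses no measured value, although the genes were proposed with earlier results of these data known. All 10 had a mean normalised read count of at least 1, the minimum for a test. RNA was taken from the distal colon of male C57BL/6 mice, wild type and 7 weeks old, after 7 days of treatment. The treatments were 2% dextran sulphate sodium (DSS, a polymer toxic to the lining of the colon) combined with montmorillonite powder, 2% DSS alone, and water. Montmorillonite is an adsorbent clay, and the sources used here do not state its dose. Each of the 3 groups held 2 libraries, and the labels did not say that these came from separate mice, so p-values measure only the spread between libraries.

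Neutrophils are short-lived phagocytes that leave the blood for injured mucosa, guided by chemokines, formylated peptides and other chemoattractants. S100A8 and S100A9 form calprotectin, the metal-binding protein that fills neutrophil cytosol and is measured in stool as a sign of gut inflammation. Lipocalin 2, the product of Lcn2, binds bacterial siderophores and is made by inflamed epithelium as well as by neutrophils, and S100a8 and S100a9 are also expressed by stressed stratified squamous epithelium. Granulocyte colony-stimulating factor (G-CSF, from Csf3) is a cytokine of stromal and other tissue cells that drives neutrophil production through the receptor encoded by Csf3r. In bulk RNA, fewer cells of a type and less RNA per cell cannot be told apart.

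The reads recovered from the normalised values summed to 6395768 and 4494666 with DSS plus montmorillonite, 21481594 and 15212981 with DSS, and 8936826 and 3741494 with water. A single read was worth a normalised read count of 1.44 and 1.82 with DSS plus montmorillonite, 0.335 and 0.479 with DSS, and 0.960 and 2.27 with water. The DSS plus montmorillonite libraries stood apart from each other: across genes, replicate 1 correlated at 0.950 and 0.941 with the water libraries, and replicate 2 at 0.918 and 0.937 with the DSS libraries. Their correlation with each other was 0.835, against 0.90 within DSS and 0.969 within water, so every value below is given per library. Epithelial markers were present in every library. Epcam, an adhesion molecule of epithelial cells, stood at 17393 and 9099 with DSS plus montmorillonite, 8370 and 4673 with DSS, and 17709 and 17013 with water. Such markers show that epithelium was sampled and cannot test the label of distal colon. Replicate 2 of both DSS-treated groups also held genes of stratified squamous epithelium, which lines the anal canal: the summed normalised read count of 12 such markers was 227 and 8047 with DSS plus montmorillonite, 273 and 42547 with DSS, and 97.9 and 587 with water.

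Sequence upstream of the start site was available from RefSeq (GRCm38.p6) for 9 of the 10 genes, and is shown for 3 of them. S100a8 and S100a9 are the calprotectin pair that moved together, and Cd177 is the gene whose values ran the other way. Each line gives the 250 bases before the start, 5′ to 3′ on the gene's own strand, at chr3:90668821-90669070 on the plus strand, chr3:90695722-90695971 on the minus strand and chr7:24760312-24760561 on the minus strand. For S100a8 the RefSeq start lies downstream of the GENCODE gene start given below, so the last bases of its sequence, among them the second PU.1 match, fall within the gene as GENCODE annotates it. Capitals mark matches, on either strand, to the motif of the C/EBP factors of myeloid cells (TTNNGNAA) or of the myeloid factor PU.1 (GAGGAA).
S100a8: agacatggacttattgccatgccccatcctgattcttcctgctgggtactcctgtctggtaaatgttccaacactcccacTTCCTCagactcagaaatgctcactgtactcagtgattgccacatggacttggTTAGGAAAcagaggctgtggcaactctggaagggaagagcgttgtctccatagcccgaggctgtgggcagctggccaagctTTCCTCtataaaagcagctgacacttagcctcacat
S100a9: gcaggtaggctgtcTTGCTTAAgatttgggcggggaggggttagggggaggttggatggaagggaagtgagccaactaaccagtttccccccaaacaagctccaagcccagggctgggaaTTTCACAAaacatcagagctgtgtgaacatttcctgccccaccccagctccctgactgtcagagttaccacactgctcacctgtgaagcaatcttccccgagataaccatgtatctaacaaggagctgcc
Cd177: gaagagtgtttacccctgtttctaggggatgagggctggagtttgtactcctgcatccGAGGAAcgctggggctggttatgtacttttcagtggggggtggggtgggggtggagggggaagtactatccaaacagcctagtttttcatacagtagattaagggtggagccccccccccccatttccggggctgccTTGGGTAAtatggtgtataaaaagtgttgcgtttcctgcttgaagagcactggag
The C/EBP letters were present in 7 of the 9 sequences and in 36.8% of 32851 mouse promoters of the same length. The PU.1 letters were present in 6 of the 9 and in 23.3% of promoters. A STAT motif (TTCNNNGAA) was present in 1, that of Fpr2, against 7.02% of promoters, and the NF-kappaB consensus in 0, against 3.90%. S100a8 held 1 C/EBP and 2 PU.1 matches, S100a9 held 2 C/EBP matches and no PU.1 match, and Cd177 held 1 of each, so these letters were present both in genes that rose and in the gene that fell. No motif overlapped another in the 3 sequences shown.

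The comparison of DSS with water asks how the injured colon differed from the untreated one. All 10 genes changed: 9 rose and Cd177 fell, with adjusted p between 0.00137 and 0.0276 (limma on log2(value + 1), fitted to these 4 libraries). Among the 20307 genes tested, 7.90% rose and 7.18% fell. The median log2 difference of the 10 genes was 7.19, or 7.05 with Retnlg and Csf3 set at the bound that their absence from water allows, against 0.10 for all genes. None of the 10 had overlapping values between DSS and water, with 9 higher and 1 lower in DSS, against 33.9% and 28.5% of all genes. Scaling by library size alone moved the median of all genes to 0.33 and the split of calls to 2195 higher and 886 lower, against 1605 and 1459 as deposited; the 10 genes kept their calls.

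The calls rest on both DSS libraries and on the fit of 4 libraries. Without DSS replicate 1 or DSS replicate 2 no gene in the table passed (smallest adjusted p = 0.0557 and 0.0761, with 6256 and 4795 genes at an unadjusted p under 0.05), and the fit of all 6 libraries likewise called none (smallest adjusted p = 0.0576, 4662 genes unadjusted). On the recovered reads, edgeR called 2993 genes with 4 libraries and 0 with 6, with 4540 at an unadjusted p under 0.05, and DESeq2 called 4012 and 2357. Without water replicate 1 or water replicate 2 the calls over all genes came to 288 and 317, and 8 of the 9 genes still rose; Csf3 (adjusted p = 0.0746 and 0.0722) and Cd177 (adjusted p = 0.0775 and 0.0541) no longer passed. With 2 libraries a side, the smallest p of an exact permutation test is 0.333, and none was run.

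**Figure D1:**
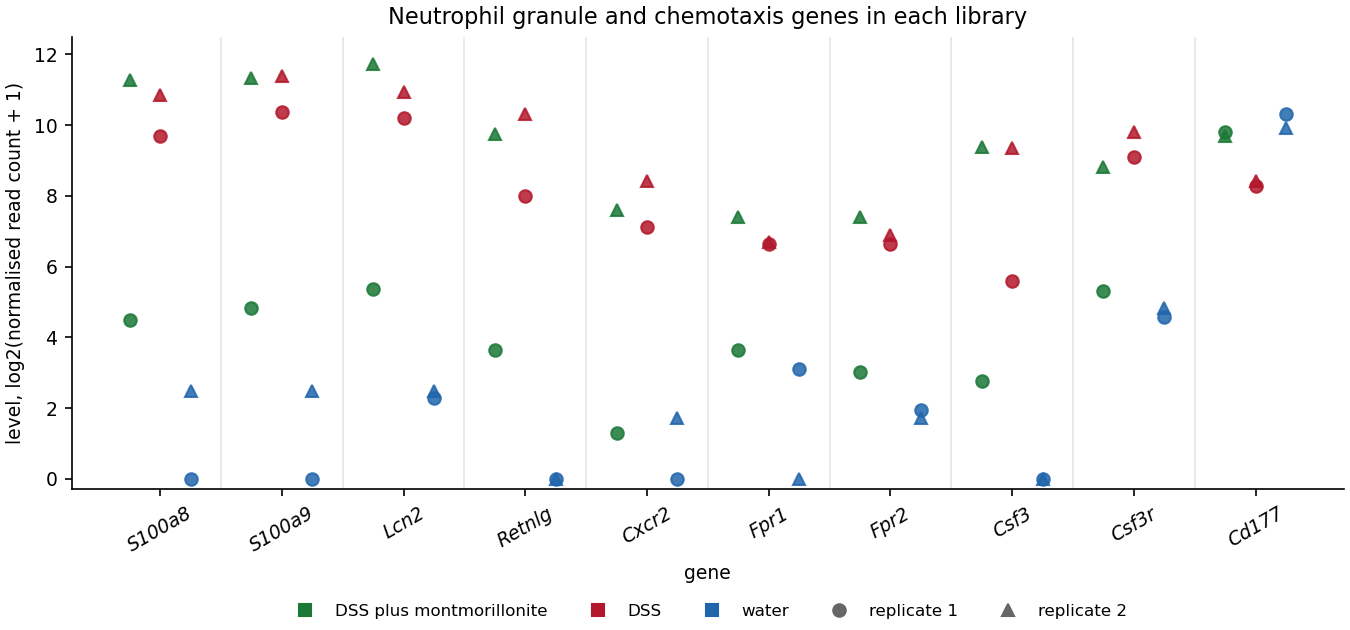
Normalised read counts of the 10 genes in each of the 6 libraries, drawn as log2(value + 1), with a circle for replicate 1, a triangle for replicate 2, and groups from left to right DSS plus montmorillonite, DSS and water. In normalised read counts, Retnlg stood at 256 and 1268 in DSS and at 0 in both water libraries, whereas Cd177 stood at 311 and 344 in DSS and at 1265 and 971 in water.

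S100a9 (ENSMUSG00000056071.12, GRCm38 chromosome 3, 90692632 to 90695721, minus strand) had a normalised read count of 27.3 and 2602 with DSS plus montmorillonite, 1315 and 2696 with DSS, and 0 and 4.55 with water. Its partner S100a8 (ENSMUSG00000056054.9, chromosome 3, 90668978 to 90670035, plus strand) had 21.6 and 2502 with DSS plus montmorillonite, 826 and 1849 with DSS, and 0 and 4.55 with water. Both genes were thus all but absent from water, high in both DSS libraries and in DSS plus montmorillonite replicate 2, and low in DSS plus montmorillonite replicate 1. With only 2 reads over the water libraries for each gene, the ratio of pooled reads, DSS over water, was 1395 for S100a9 (95% counting interval 386 to 11520) and 924 for S100a8 (256 to 7630). The log2 difference was 9.64 ± 0.84 (SE) for S100a9 and 9.04 ± 0.86 for S100a8, with adjusted p = 0.00541 and 0.00612 (limma). Intervals here and below are exact and cover counting error only.

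The calprotectin genes lie 22596 bp apart with no annotated gene between them, and are transcribed on opposite strands from GENCODE starts 26743 bp apart. Per kilobase of exon, S100a9 reached 2519 and 5165 in the DSS libraries, which placed it at rank 72 and 32 of 15956 protein-coding genes, and 4984 in DSS plus montmorillonite replicate 2, at rank 40. In DSS plus montmorillonite replicate 1 it stood at rank 6192, at 52.4 per kilobase. The share of S100a8 among the reads of the pair was 44.1% (95% interval 27.2 to 62.1) and 49.0% (47.2 to 50.9) with DSS plus montmorillonite, against 38.6% (37.4 to 39.8) and 40.7% (39.7 to 41.7) with DSS. The interval of DSS plus montmorillonite replicate 2 lay above those of both DSS libraries, while that of replicate 1, which rests on 34 reads, spanned them. In water the pair had 4 reads in all.

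Lcn2 (ENSMUSG00000026822.14, chromosome 2, 32384633 to 32388252, minus strand) had 40.3 and 3392 with DSS plus montmorillonite, 1172 and 1950 with DSS, and 3.84 and 4.55 with water. DSS plus montmorillonite replicate 2 was the highest of the 6 libraries and replicate 1 lay between water and DSS. The mean was 1561 ± 550 with DSS and 4.19 ± 0.501 with water (SD, n = 2 each), a log2 difference of 8.19 ± 0.35 (292-fold, adjusted p = 0.00137, limma). The ratio of pooled reads was 368 (169 to 1004), from 6 reads in water. Against S100a9, Lcn2 took a larger share of the reads of the pair with DSS plus montmorillonite, at 59.6% (44.3 to 73.6) and 56.6% (54.9 to 58.3), than with DSS, at 47.1% (46.0 to 48.3) and 42.0% (41.0 to 43.0). The interval of replicate 1 reached down into the DSS range.

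Retnlg (ENSMUSG00000022651.5, chromosome 16, 48872621 to 48874496, plus strand) encodes resistin-like gamma, a small secreted protein of mouse bone marrow and neutrophils. It had 11.5 and 861 with DSS plus montmorillonite, 256 and 1268 with DSS, and no read in either water library. Against a floor of 3 reads over the water group, the pooled reads of DSS were at least 332-fold higher. Of these, 765 came from DSS replicate 1 and 2646 from DSS replicate 2. The log2 difference passed (adjusted p = 0.00541, limma). Its DSS libraries differed 4.95-fold, more than those of the calprotectin genes (2.24-fold for S100a8 and 2.05-fold for S100a9) or Lcn2 (1.66-fold).

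Other granule genes did not all follow. Of 12 further genes of secondary and tertiary granules, 7 rose, 0 fell and 5 did not pass in DSS against water, with a median log2 difference of 4.91 (4.95 with genes absent from a group at their bound). Haptoglobin (Hp), which binds free haemoglobin, stood at 14.4 and 1239 with DSS plus montmorillonite, 707 and 1199 with DSS, and 4.80 and 2.27 with water (log2 difference of DSS from water 7.72 ± 0.45, adjusted p = 0.00230, limma). Slpi, a protease inhibitor that epithelium also makes, stood at 1054 and 3458 with DSS plus montmorillonite, 2074 and 2057 with DSS, and 116 and 136 with water (4.03 ± 0.18, adjusted p = 0.00137). Lactoferrin (Ltf), named after its values were seen, did not pass (adjusted p = 0.118): it had 70.5 and 1799 with DSS plus montmorillonite, 136 and 6611 with DSS, and 28.8 and 50 with water.

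Genes of primary granules stayed near the detection limit. Of 6 listed, 3 were in the table used here and 2 were tested, neither of which passed. Myeloperoxidase (Mpo), named after its values were seen, had 0 and 0 with DSS plus montmorillonite, 1.68 and 0.479 with DSS, and 3.84 and 0 with water, and lay under the minimum for a test. Prtn3, a serine protease of the same granules and likewise named afterwards, had 4.31 and 9.08 with DSS plus montmorillonite, 7.04 and 11 with DSS, and 1.92 and 2.27 with water (adjusted p = 0.121 for DSS against water, limma).

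Cxcr2 (ENSMUSG00000026180.8, chromosome 1, 74153989 to 74161246, plus strand) encodes the chemokine receptor that brings neutrophils into tissue. It had 1.44 and 193 with DSS plus montmorillonite, 137 and 341 with DSS, and 0 and 2.27 with water. The value of DSS plus montmorillonite replicate 1 was a single read and lay between the water libraries. With 1 read over both water libraries, the ratio of pooled reads of DSS to water was 327 (58.6 to 12936), and the log2 difference was 6.91 ± 0.77 (adjusted p = 0.00813, limma).

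Chemokines that bind Cxcr2 were higher with DSS as well: of 5 listed, 4 rose and 1 did not pass, with a median log2 difference of 6.36. Cxcl2 stood at 7.19 and 739 with DSS plus montmorillonite, 237 and 840 with DSS, and 1.92 and 4.55 with water (DSS against water 6.80 ± 0.69, adjusted p = 0.00691, limma). Cxcl5 stood at 86.3 and 3694 with DSS plus montmorillonite, 1669 and 6142 with DSS, and 31.7 and 61.4 with water (6.15 ± 0.63, adjusted p = 0.00700). The chemokine that did not pass, Ppbp, is known from platelets and had 10.1 and 2545 with DSS plus montmorillonite, 12.4 and 9468 with DSS, and 1.92 and 54.6 with water (adjusted p = 0.327). Its high libraries were those with high squamous markers, and the part of that tissue in the value was not tested.

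Fpr1 and Fpr2 encode receptors for formylated peptides of bacteria and mitochondria, and Fpr2 also binds annexin A1 and serum amyloid A. Fpr1 (ENSMUSG00000045551.7, chromosome 17, 17876471 to 17883940, minus strand) had 11.5 and 167 with DSS plus montmorillonite, 98.8 and 103 with DSS, and 7.68 and 0 with water. Fpr2 (ENSMUSG00000052270.7, chromosome 17, 17887824 to 17893952, plus strand) had 7.19 and 169 with DSS plus montmorillonite, 97.8 and 118 with DSS, and 2.88 and 2.27 with water. Together with Cd177 these were the members with the closest DSS libraries, at a ratio of 1.04 for Fpr1 and 1.21 for Fpr2, and DSS plus montmorillonite replicate 2 lay above both of them for each gene. The log2 difference of DSS from water was 5.11 ± 1.02 for Fpr1 (adjusted p = 0.0276) and 4.93 ± 0.47 for Fpr2 (adjusted p = 0.00618, limma). The ratios of pooled reads were 18.6 (9.38 to 43.4) from 8 water reads and 39.4 (15.3 to 145) from 4.

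The receptor genes are divergently transcribed from starts 3884 bp apart. Fpr1 took 61.5% (31.6 to 86.1) and 49.7% (42.3 to 57.2) of the reads of the pair with DSS plus montmorillonite, 50.3% (46.1 to 54.4) and 46.5% (41.9 to 51.2) with DSS, and 8 of 11 reads and 0 of 1 with water, so the share did not separate the groups beyond counting error. The annotation places Fpr3 over Fpr2 on the same strand, and how reads were assigned between them is not stated in the sources used here, so the Fpr2 values are uncertain in that respect. Among 5 ligands of these receptors 1 rose: Saa3, an acute-phase serum amyloid, at 51.8 and 7480 with DSS plus montmorillonite, 4253 and 6250 with DSS, and 11.5 and 18.2 with water (DSS against water 8.38 ± 0.30, adjusted p = 0.00137). Annexin A1 (Anxa1), named after its values were seen, had 3453 and 7066 with DSS plus montmorillonite, 3765 and 14925 with DSS, and 3211 and 3516 with water (adjusted p = 0.243).

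Csf3r (ENSMUSG00000028859.14, chromosome 4, 126024550 to 126044440, plus strand) was the rising member with the most reads in water, 24 and 12. It had a normalised read count of 38.8 and 451 with DSS plus montmorillonite, 547 and 891 with DSS, and 23.0 and 27.3 with water. It was the only one of the 9 genes for which both DSS plus montmorillonite libraries lay below both DSS libraries. The mean was 719 ± 243 with DSS and 25.2 ± 3.01 with water (SD, n = 2 each), a log2 difference of 4.74 ± 0.32 (26.8-fold, adjusted p = 0.00308, limma) and a ratio of pooled reads of 28.3 (20.4 to 40.5).

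The ligand gene Csf3 (ENSMUSG00000038067.2, chromosome 11, 98701263 to 98703629, plus strand) had 5.75 and 672 with DSS plus montmorillonite, 46.9 and 654 with DSS, and no read with water. It was the most uneven member within DSS, replicate 2 standing 13.95-fold above replicate 1. In pooled reads, 140 from DSS replicate 1 and 1365 from DSS replicate 2, DSS was at least 146.56-fold higher than the water floor. That bound thus rests mostly on replicate 2. The log2 difference passed (adjusted p = 0.0168, limma). With reads thinned to the depth of the shallowest library, Csf3 no longer passed (adjusted p = 0.0548, limma). The level of Csf3 per kilobase was 0.378 and 3.81 times that of Csf3r with DSS plus montmorillonite and 0.219 and 1.88 times with DSS. Ligand exceeded receptor per length in replicate 2 of each DSS-treated group and lay below it in replicate 1.

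Among 15 tested genes that induce G-CSF or carry its signal, 7 rose, 0 fell and 8 did not pass in DSS against water (median log2 difference 1.5). Il1b, the interleukin-1 beta gene, had 90.6 and 901 with DSS plus montmorillonite, 1165 and 1165 with DSS, and 30.7 and 40.9 with water (5.0 ± 0.23, adjusted p = 0.00148, limma). Socs3, a feedback inhibitor of cytokine receptors including that for G-CSF, had 246 and 2589 with DSS plus montmorillonite, 1258 and 3356 with DSS, and 114 and 150 with water (3.96 ± 0.46, adjusted p = 0.00861). Of 7 genes of other colony-stimulating factors and their receptors 3 rose and 4 did not pass. They included Csf2rb, the shared beta chain for GM-CSF, interleukin-3 and interleukin-5, at 102 and 861 with DSS plus montmorillonite, 643 and 946 with DSS, and 111 and 105 with water (2.84 ± 0.25, adjusted p = 0.00541). Csf2ra, the GM-CSF-specific chain, also rose, with 197 and 481 with DSS plus montmorillonite, 382 and 395 with DSS, and 165 and 161 with water (1.25 ± 0.19, adjusted p = 0.0153).

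Cd177 (ENSMUSG00000052212.6, chromosome 7, 24743983 to 24760311, minus strand) encodes a GPI-anchored surface protein that is known from neutrophils. It had 890 and 832 with DSS plus montmorillonite, 311 and 344 with DSS, and 1265 and 971 with water. The libraries of each group were close, no groups overlapped, and DSS plus montmorillonite lay between DSS and water. The mean was 327 ± 23.0 with DSS and 1118 ± 208 with water (SD, n = 2 each), a log2 difference of -1.76 ± 0.20 (0.296-fold, adjusted p = 0.00843, limma) and a ratio of pooled reads of 0.276 (0.257 to 0.295). In water, Cd177 was at 445 and 342 per kilobase, with every other member at 8.71 or lower.

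**Figure D2:**
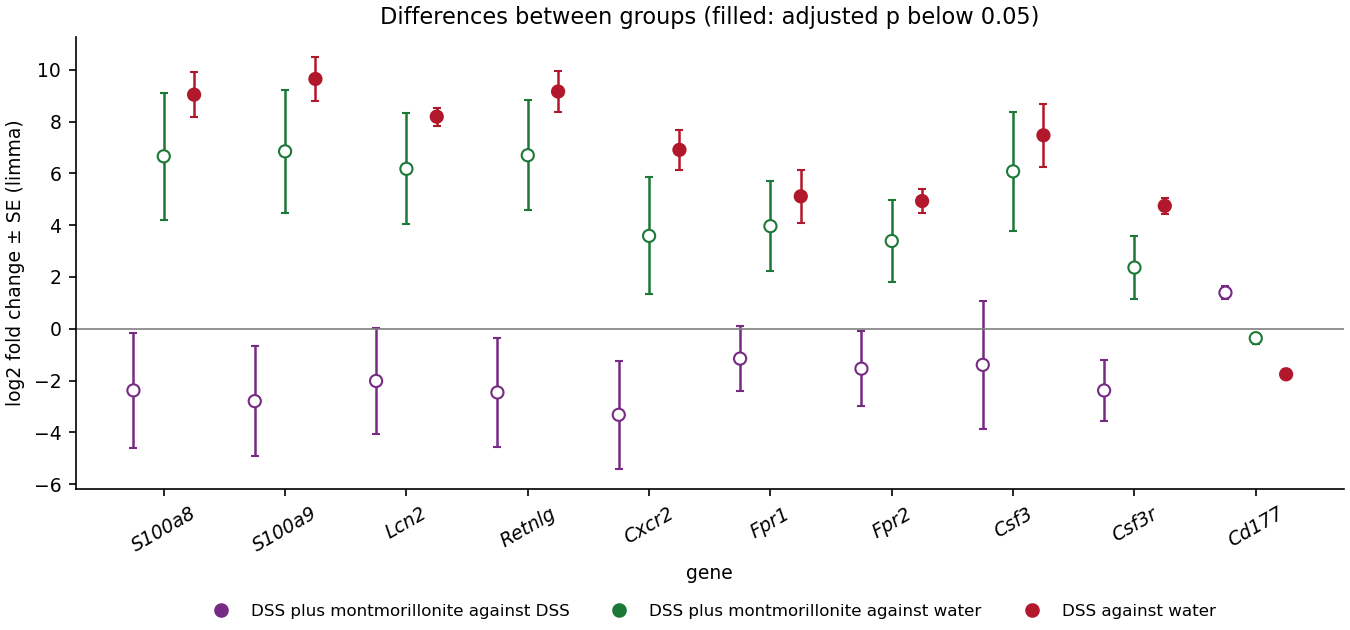
Log2 differences of the 10 genes, with bars of 1 standard error from limma fits of 4 libraries, for DSS plus montmorillonite against DSS, DSS plus montmorillonite against water, and DSS against water; filled points passed the threshold. In DSS against water 9 genes lie between 4.74 and 9.64 and Cd177 at -1.76, while the bars of both comparisons with DSS plus montmorillonite are longer for the 9 genes.

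The comparisons with DSS plus montmorillonite ask how mice given the clay with DSS differed from untreated mice and from mice given DSS alone. Neither comparison called any of the 10 genes, nor any other gene (background 0% each, limma). Against water the smallest adjusted p over all genes was 0.629, with 1576 genes at an unadjusted p under 0.05; against DSS it was 0.691, with 1444. On the recovered reads edgeR also called 0 genes in each comparison with 4 or 6 libraries, while DESeq2 called 202 and 343 against water and 68 and 638 against DSS.

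For 9 of the 10 genes the 2 libraries of this group lay far apart, replicate 2 standing from 11.6-fold (Csf3r) to 134-fold (Cxcr2) above replicate 1. Replicate 2 lay above both DSS libraries for S100a8, Lcn2, Fpr1, Fpr2 and Csf3, between them for S100a9, Retnlg and Cxcr2, and below them for Csf3r. Replicate 1 lay below both DSS libraries for all 9, at 0.60% (Cxcr2) to 11.4% (Fpr1) of the DSS mean, and above both water libraries for 8 of them, Cxcr2 being the exception. Over the 9 genes the median log2 distance from the water mean was 2.76 and 9.35 with DSS plus montmorillonite, 6.25 and 8.56 with DSS, and -0.10 and 0.10 with water.

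Counting intervals set replicate 1 apart from water for some genes and not for others. S100a9 in replicate 1 rested on 19 reads (value 27.3, interval 16.5 to 42.7), against an upper limit of 16.4 in water replicate 2, whereas Csf3 rested on 4 reads (5.75, interval 1.57 to 14.7), against 0 reads and an upper limit of 8.39 there. Against water, 8 genes had both DSS plus montmorillonite libraries above both water libraries and Cd177 had both below, against 21.5% and 19.2% of all genes. The median log2 difference was 5.02 (5.07 at the bound), against 0.06 for all genes. Single differences ran from 2.36 ± 1.22 for Csf3r (adjusted p = 0.652) to 6.85 ± 2.37 for S100a9 (adjusted p = 0.629), and Cd177 stood at -0.36 ± 0.21 (adjusted p = 0.664, limma).

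Against DSS, 8 genes overlapped, Csf3r was lower in both libraries and Cd177 higher in both, against 20.6% lower and 19.4% higher among all genes. The median log2 difference was -2.20, against -0.07 for all genes. The difference was -2.79 ± 2.12 for S100a9 (adjusted p = 0.756), -2.01 ± 2.06 for Lcn2 (adjusted p = 0.792) and -2.38 ± 1.17 for Csf3r (adjusted p = 0.704, limma). Leaving out DSS plus montmorillonite replicate 1 turned the sign for 7 of the 10 genes, S100a9 then standing at 0.47 and Lcn2 at 1.17. Leaving out replicate 2 gave -6.06 for S100a9 (adjusted p = 0.0307) and -5.20 for Lcn2 (adjusted p = 0.0307), and 6 genes then passed, so the sign in this comparison rests on which library is kept.

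Cd177 was the exception again, with 861 ± 41.1 in DSS plus montmorillonite and 327 ± 23.0 in DSS (SD, n = 2 each). The log2 difference was 1.39 ± 0.24, or 2.63-fold, at an unadjusted p of 0.00237 that did not pass after adjustment over all genes (adjusted p = 0.691, limma). With DESeq2 the adjusted p of Cd177 was 9.1e-05 with 6 libraries and 0.0358 with 4.

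**Figure D3:**
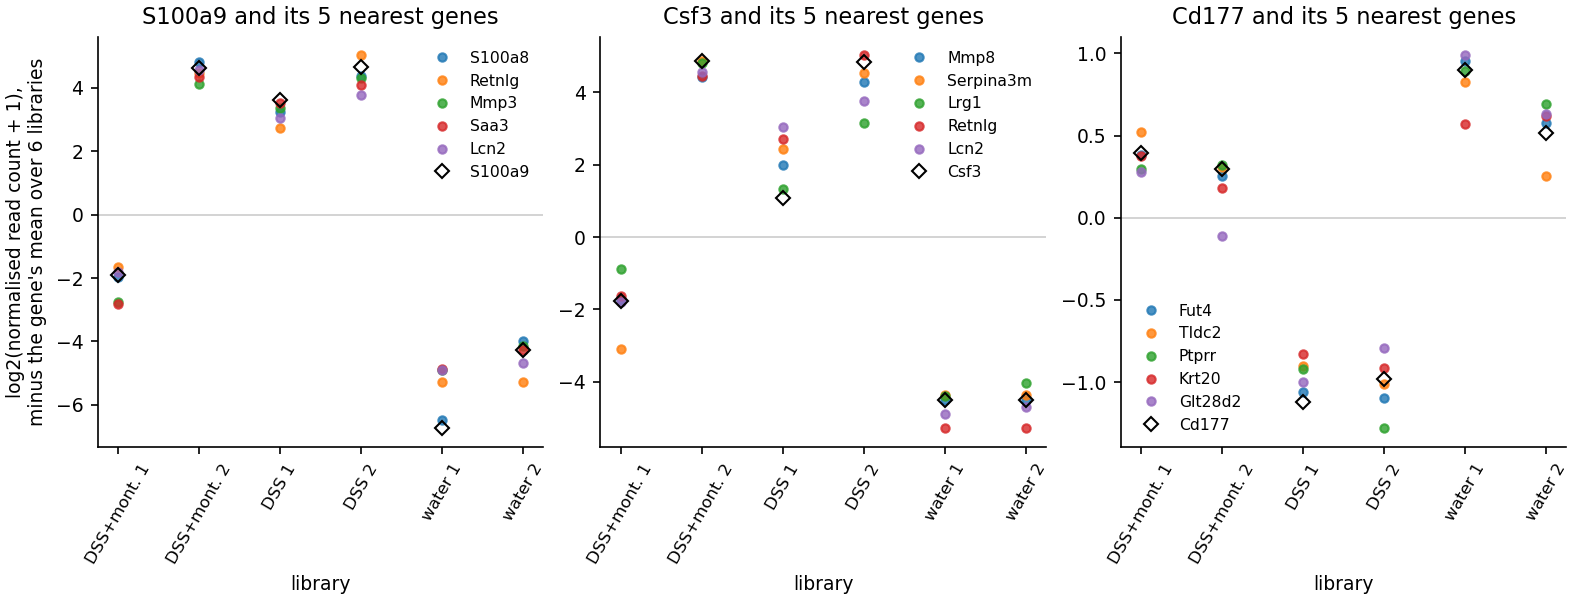
Centred log2(value + 1) of S100a9, Csf3 and Cd177, each with the 5 protein-coding genes nearest to it over the 6 libraries, the libraries running from DSS plus montmorillonite through DSS to water. S100a9 and S100a8 differ by 0.267 (root mean square), and the genes near Cd177 are low in both DSS libraries where those near S100a9 are high.

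Likeness between genes was measured as the root-mean-square difference of centred log2(value + 1) over the 6 libraries, among 12921 protein-coding genes whose mean value was 20 or more, and is given as a description with no test. The genes nearest to S100a9 were S100a8 at 0.267, Retnlg at 0.836, the matrix metalloproteinase gene Mmp3 at 0.865, Saa3 at 0.881 and Lcn2 at 0.891. Csf3 and Cxcr2 stood at rank 11 and 13, and Fpr2, Csf3r and Fpr1 at rank 59, 78 and 101, so 8 of the other 9 members were among the nearest 101 genes. Csf3 was nearest to Mmp8, the neutrophil collagenase, at 0.479, followed by Serpina3m, Lrg1, Retnlg and Lcn2 at 0.794 to 0.939.

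The genes nearest to Cd177 were Fut4, a fucosyltransferase, at 0.0659, Tldc2 at 0.153, the receptor phosphatase Ptprr at 0.169, Krt20, a keratin of mature colonocytes, at 0.192, and Glt28d2 at 0.203. Fut4 had 984 and 899 with DSS plus montmorillonite, 361 and 352 with DSS, and 1462 and 1126 with water. Krt20 had 9952 and 8696 with DSS plus montmorillonite, 4314 and 4079 with DSS, and 11395 and 11805 with water. S100a9 stood at rank 12921 of 12921 from Cd177, the farthest of all. The distance is not scaled for the size of a gene's changes, so genes with wide changes, such as S100a9, lie far from Cd177. Measured from S100a9, Cd177 stood at rank 12180 of 12921.

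**Figure D4:**
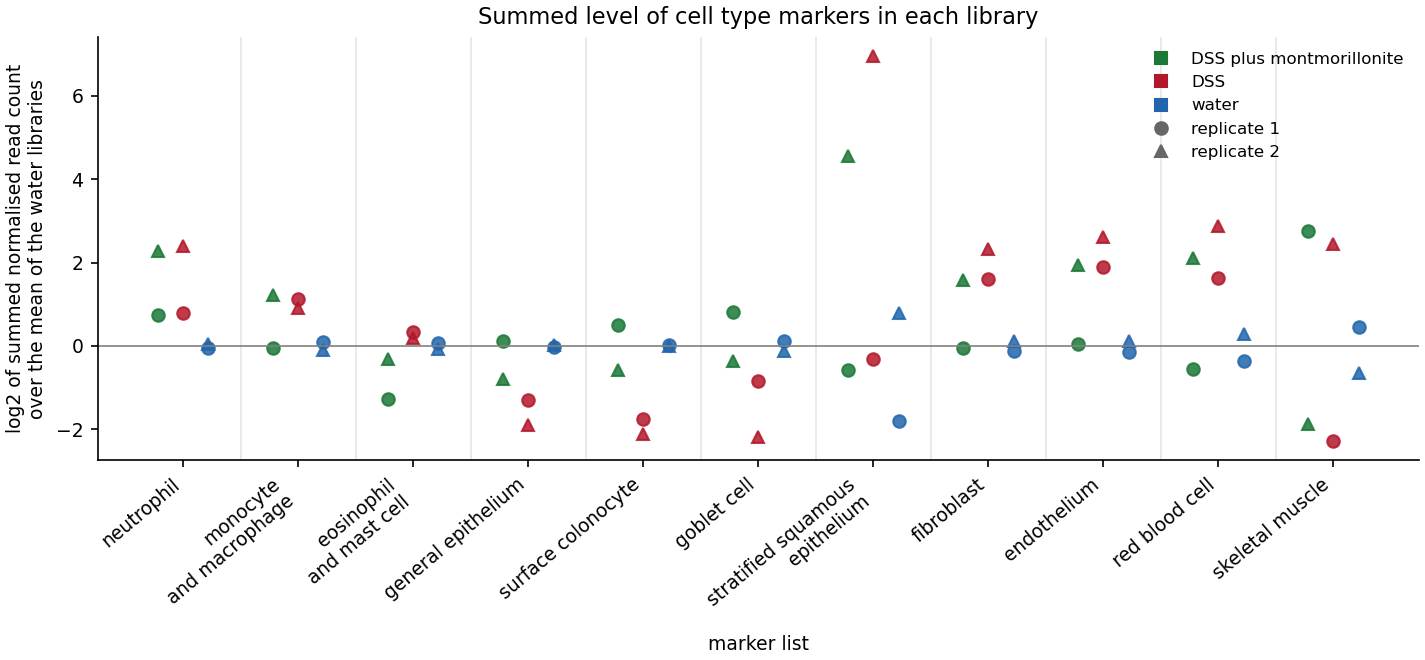
Summed normalised read counts of 11 cell type marker lists in each library, drawn as log2 over the mean of the water libraries, with groups in the order DSS plus montmorillonite, DSS and water, circles for replicate 1 and triangles for replicate 2. Squamous sums are highest in DSS plus montmorillonite replicate 2 (8047) and DSS replicate 2 (42547), and general epithelial sums are lowest in DSS (76955 and 51013). The neutrophil sums of the water libraries, which set the baseline of that list, are mostly Ly6g.

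Markers of other cells moved between the same libraries. The 9 general epithelial markers all fell in DSS against water and summed to 204977 and 109650 with DSS plus montmorillonite, 76955 and 51013 with DSS, and 186189 and 191914 with water, with none at 0 in any library. Of 7 surface colonocyte markers, Krt20 among them, 6 fell and 1 did not pass; they summed to 62696 and 29635 with DSS plus montmorillonite, 13092 and 10215 with DSS, and 44406 and 43560 with water. Their part in the lower Cd177 values was not tested. Monocyte and macrophage markers, 5 of 12 of which rose, summed to 5260 and 12513 with DSS plus montmorillonite, 11792 and 10230 with DSS, and 5790 and 5031 with water. The 6 fibroblast markers, 4 of which rose, summed to 11193 and 34903 with DSS plus montmorillonite, 35610 and 57922 with DSS, and 10602 and 12633 with water. Skeletal muscle markers, none of which passed, summed to 2621 and 105 with DSS plus montmorillonite, 79.1 and 2088 with DSS, and 526 and 246 with water. The 5 endothelial markers, 4 of which rose, summed to 677 and 2538 with DSS plus montmorillonite, 2432 and 4002 with DSS, and 596 and 716 with water. The 5 red blood cell markers, 3 of which rose, summed to 89.2 and 561 with DSS plus montmorillonite, 405 and 964 with DSS, and 102 and 159 with water. None of the 12 squamous markers passed; in DSS replicate 1 the squamous sum was 273, S100a9 was at 1315 and S100a8 at 826. The part of squamous epithelium, blood and vessels in the values of the 9 genes that rose was not tested.

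Neutrophil genes outside the 10 were counted in 3 lists of granule, surface and activation genes, with 37 tested. In DSS against water 26 rose, 0 fell and 11 did not pass, with a median log2 difference of 4.03 (3.76 at the bound), and no gene of these lists passed in the comparisons of DSS plus montmorillonite with water or with DSS. The surface and activation genes gave 19 of those calls out of 23. They included Clec4e, a receptor for damaged cells and mycobacterial lipid, at 5.75 and 291 with DSS plus montmorillonite, 273 and 261 with DSS, and 5.76 and 2.27 with water (5.83 ± 0.49, adjusted p = 0.00498, limma). Itgb2, the beta-2 integrin chain of leukocytes, stood at 134 and 694 with DSS plus montmorillonite, 571 and 646 with DSS, and 159 and 164 with water (1.90 ± 0.19, adjusted p = 0.00677). Ly6g, the surface antigen by which mouse neutrophils are sorted, was named after its values were seen and did not pass (adjusted p = 0.108, limma). It had 5084 and 5954 with DSS plus montmorillonite, 2137 and 2365 with DSS, and 2989 and 3193 with water. In the same water libraries S100a9 had 0 and 4.55, Cxcr2 had 0 and 2.27, and Retnlg had no read. The Ly6g values thus did not track these neutrophil genes and are not read here as a measure of neutrophils. The source of the Ly6g reads was not tested. Of 12 neutrophil markers, which include 5 of the 10 genes, 10 were tested, 6 rose and 4 did not pass. Those 5 genes were all among the 6 that rose, and the 4 that did not pass were other markers. The summed normalised read count of the 11 in the table was 5281 and 15333 with DSS plus montmorillonite, 5453 and 16683 with DSS, and 3045 and 3282 with water, so by this sum DSS plus montmorillonite replicate 1 was near DSS replicate 1. Ly6g made up 5084 of the sum in DSS plus montmorillonite replicate 1, against 2137 in DSS replicate 1. In water, Ly6g made up 2989 of 3045 and 3193 of 3282, and 7 and 5 of the 11 markers stood at 0. The water sums thus held little signal from the other markers. Among 7 other tested chemoattractant receptors 5 rose and 2 did not pass. Ccr1, a receptor of myeloid cells for CC chemokines, had 51.8 and 456 with DSS plus montmorillonite, 457 and 376 with DSS, and 93.1 and 86.4 with water (2.20 ± 0.22, adjusted p = 0.00691), and Cxcr4, which retains neutrophils in the bone marrow, had 43.1 and 354 with DSS plus montmorillonite, 286 and 292 with DSS, and 43.2 and 56.9 with water (2.52 ± 0.27, adjusted p = 0.00739).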

How the data were processed

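Total RNA from 6 colon samples was sequenced. The authors deposited 1 signal per gene and library, in which 100% of values were whole reads (within 0.01 read) divided by 1 factor per library; the sum of reads over the libraries was at least 10 for every gene. Build mm10 (GRCm38) comes from the submitters' processing notes; aligner, counter, strand use and normalization tool are not given in the sources used here. All 6 columns were used. Of 20533 genes, 20483 were found in GENCODE mouse release M21 and 50 had no name there. Group and replicate came from the titles.

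Since the values were normalised rather than raw counts, the test was limma 3.58.1 (R 4.3.3) with an intensity trend on log2(value + 1). It covered genes with a mean of at least 1, on the 4 libraries of each comparison (2 residual degrees of freedom). It was two-sided, with Benjamini-Hochberg adjustment over all genes and a threshold of 0.05. Adding 1 can understate the change of low genes, but limma did not always give the smaller change. In DSS against water the log2 difference of Fpr1 was 5.11 in limma and 4.36 in edgeR on 4 libraries. EdgeR 4.0.16 and DESeq2 1.42.0 on recovered reads, other pseudocounts, filters and scalings, thinned reads, a replicate block and leaving out libraries were alternatives. Floors were 3 reads over a group, and intervals exact 95%.

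The genes, lists and tests were chosen with earlier results of these data known, among them that the fit of 6 libraries called no gene. Beyond the 10 genes, named genes were per list the 2 that passed with the lowest p in DSS against water. Members that passed against their list's direction, and the 5 nearest to S100a9, Csf3 and Cd177, were named too. Epcam and Ppbp were named outside this rule, and others outside it are said to be chosen afterwards.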

Additional observations from a re-analysis of the deposited data

How the results depend on the processing

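In DSS against water the 10 genes kept their calls with pseudocounts of 0.5 and 5, without a filter, with a filter at a mean of 10, with library-size and TMM scaling, and with edgeR on 4 and DESeq2 on 4 and 6 libraries. With all 6 libraries in 1 fit, in limma or in edgeR, 0 members were higher, 0 lower, and 0 of all genes called. Thinned reads called 1844 genes. Leaving out 1 library gave 0 to 8 members higher, 0 lower, and 0 to 317 genes called. In DSS plus montmorillonite against water, DESeq2 called 8 members higher with 6 libraries (343 genes) and 2, Lcn2 and Fpr2, with 4 (202 genes). In DSS plus montmorillonite against DSS, DESeq2 called 1 member, Cd177, higher with 6 libraries (638 genes) and with 4 (68 genes); leaving out 1 library gave 0 to 6 members lower and 0 to 285 genes called. Signs turned there for Lcn2 in edgeR with 4 and 6 libraries (0.10 each) and in DESeq2 with 6 and 4 (0.14 and 0.12), and on leaving out DSS plus montmorillonite replicate 1 (or, for Csf3, also DSS replicate 2, at 0.49). With 1 library left out the log2 difference ran from -5.78 to 1.02 for S100a8, -6.06 to 0.47 for S100a9, -5.20 to 1.17 for Lcn2, -5.51 to 0.59 for Retnlg, -3.03 to 0.72 for Fpr1, -3.73 to 0.65 for Fpr2 and -4.71 to 1.93 for Csf3; the cause was not tested. Where 1 library was left in a group, it was assumed to vary like the other group.

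The replicate numbers are shared by the groups, but with 2 pairs per comparison they do not establish a pairing. Deviations of same-numbered libraries correlated at 0.196 in DSS against water, 0.160 in DSS plus montmorillonite against water and 0.409 in DSS plus montmorillonite against DSS. With the replicate block 5084 genes were called in DSS against water, against 3064 without it, with 9 members higher and 1 lower, and 0 genes in the other comparisons. Depth limits low values: 0 reads allow a value of up to 3.54 in water replicate 1 and 8.39 in water replicate 2.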

Other observations

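Relatives of the 10 genes moved in both directions. Of 10 other S100a genes of the chromosome 3 cluster, 1 rose, 4 fell and 5 did not pass in DSS against water (limma), with a median log2 difference of -0.62. S100a1 had a normalised read count of 854 and 500 with DSS plus montmorillonite, 465 and 367 with DSS, and 1047 and 871 with water (DSS against water -1.21 ± 0.20, adjusted p = 0.0185). S100a10, the annexin A2 partner, had 4475 and 3474 with DSS plus montmorillonite, 2690 and 2326 with DSS, and 4832 and 4844 with water (-0.95 ± 0.16, adjusted p = 0.0194). The gene that rose, S100a11, had 1450 and 4304 with DSS plus montmorillonite, 2603 and 4565 with DSS, and 1186 and 1242 with water (1.51 ± 0.28, adjusted p = 0.0233). Of 5 tested relatives of the other members, 2 rose, 1 fell and 2 did not pass. Retnlb, the goblet cell relative of Retnlg, fell to 183 and 101 with DSS, against 878 and 641 with water (-2.46 ± 0.33, adjusted p = 0.0114), and stood at 649 and 507 with DSS plus montmorillonite. Ly6d, of the Ly6 superfamily, rose, with 33.1 and 520 with DSS plus montmorillonite, 375 and 1053 with DSS, and 32.6 and 34.1 with water (4.19 ± 0.49, adjusted p = 0.00869).

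Among 6 tested receptors and partners of calprotectin and lipocalin 2, 2 rose, 1 fell and 3 did not pass. The gene that fell was Bsg, encoding basigin, with 6085 and 3686 with DSS plus montmorillonite, 3478 and 3182 with DSS, and 6770 and 6566 with water (-1.0 ± 0.16, adjusted p = 0.0166). Cd36, a scavenger receptor, rose, with 132 and 689 with DSS plus montmorillonite, 293 and 537 with DSS, and 144 and 143 with water (1.46 ± 0.32, adjusted p = 0.0349).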
